A study of Mus musculus with 13 samples.

Results

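The miRNA cluster at the distal end of the imprinted Dlk1-Dio3 domain, from mmu-mir-379 to mmu-mir-410, was followed in small-RNA sequencing of mouse hippocampus and prefrontal cortex (PFC). Its members were the 37 hairpins known to lie between those end points, chosen by name and not by any measured value, with both arms of each hairpin included. That choice was made with earlier results of these data known. Of the 37, 36 were listed in at least 1 library, out of 903 hairpins listed in the series. They gave 71 pairs of a hairpin and a mature miRNA out of 1514 pairs in all. The hairpin mmu-mir-453 had no pair in any library.

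The study compared TgR mice, which are FVB/N mice that constitutively overexpress human AChE-R (the readthrough variant of acetylcholinesterase) under the CMV minimal promoter-enhancer, with FVB/N mice that carry no transgene. Total RNA of each region, with RNA integrity numbers of 8.6 to 9.3, was the source, and 300 ng went into each library. The CMV promoter is not specific to neurons or to any other brain cell type, and both regions were taken as whole tissue. No age was given for the sequenced mice, and the labels number the animals in each region without saying whether both regions came from the same mice.

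The 13 libraries fell into 4 groups: 3 of FVB/N hippocampus, 3 of TgR hippocampus, 3 of FVB/N PFC and 4 of TgR PFC. FVB/N hippocampus had 13077865 to 15504776 counts per library and TgR hippocampus 14435742 to 18385985. FVB/N PFC had 11386005 to 15376927, and TgR PFC 8769851 to 17708258, with the lowest total in TgR PFC replicate 2. Levels are given as CPM, counts scaled to a common library total after each total was corrected with its TMM scaling factor. A count of 0 allowed a level of up to 0.163 to 0.342 CPM, taken as 3 counts of a library's uncorrected total. That limit covers counting error only, since the reads carry no molecular identifiers.

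The Dlk1-Dio3 domain is imprinted: its protein-coding genes are expressed from the paternal chromosome, and its long noncoding RNAs and small RNAs from the maternal one. The miRNAs of the distal cluster are cut from long maternal transcripts that run through the whole array, are abundant in brain, and are induced by neuronal activity through Mef2 transcription factors. Each mature miRNA guides Argonaute to target transcripts mainly through its seed, so 2 members with the same seed share most predicted targets, and those with different seeds do not.

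The mature sequences printed here were taken from RefSeq for GRCm38.p6, which held 67 of the 71 cluster miRNAs, and are written from the 5′ end with the seed, bases 2 to 8, in capitals. The 67 had 62 different seeds. Only 5 seeds were held by 2 cluster miRNAs each, so the array is not a family of copies with 1 target set. The first pairs are shown because members of high abundance share a seed with another member:
miR-379-5p: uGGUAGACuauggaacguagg
miR-1193-5p: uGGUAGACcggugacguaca
miR-379-3p: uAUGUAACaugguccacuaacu
miR-411-3p: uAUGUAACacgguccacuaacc

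The most abundant and the next most abundant member have different seeds but differ by only 3 edits over their whole length, so reads with errors could be assigned to either:
miR-381-3p: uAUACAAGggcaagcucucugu
miR-300-3p: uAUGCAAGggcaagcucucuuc

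The remaining miRNAs of high abundance, and those past the threshold of a test, each had a seed of their own within the cluster:
miR-411-5p: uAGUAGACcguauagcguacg
miR-541-5p: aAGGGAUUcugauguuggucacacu
miR-543-3p: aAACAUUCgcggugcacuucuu
miR-495-3p: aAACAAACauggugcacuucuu
miR-369-5p: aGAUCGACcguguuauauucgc
miR-369-3p: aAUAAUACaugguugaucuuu
miR-409-3p: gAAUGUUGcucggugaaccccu
miR-412-5p: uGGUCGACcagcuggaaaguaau

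The 3 sequences printed below were chosen after their values were seen. Among cluster pairs listed in all 13 libraries, miR-376a-3p had the widest range between libraries, and miR-376b-3p is 3 edits away from it. The smallest p among the miRNAs with a fold change above 0 in hippocampus was that of miR-154-3p:
miR-376a-3p: aUCGUAGAggaaaauccacgu
miR-376b-3p: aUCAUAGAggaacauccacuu
miR-154-3p: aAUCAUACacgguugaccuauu

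The 37 hairpins lie on the plus strand of chromosome 12 of GRCm38.p6, from 109709060 to 109743795, within 34736 bases. In the GENCODE annotation of the same build, the long noncoding gene Mirg runs from 109729764 to 109749460. Upstream of its annotated start lie 24 of the hairpins, 8 overlap one of its exons and 5 lie in its introns. The median level of a hairpin, both arms summed, was 86.3 CPM upstream of Mirg, 275 CPM at its exons and 507 CPM for the 4 listed hairpins in its introns. With the unlisted intronic mir-453 taken as 0, the intronic median was 172 CPM, below that at the exons, so the order of these stretches depends on that hairpin. The range was 0.00829 to 7133 CPM upstream, 37.6 to 1363 CPM at the exons and 63.5 to 2220.2 CPM for the listed intronic hairpins.

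Levels ran from single counts to some of the abundant miRNAs of the libraries. Of the 71 pairs, 9 averaged under 1 CPM, 19 from 1 to 10, 16 from 10 to 100, 20 from 100 to 1000, and 7 at 1000 CPM or more. Of all cluster counts, miR-381-3p made up 27.1%, the top 3 miRNAs 46.4% and the top 8 miRNAs 74.9%. All 13 libraries listed 67 pairs. The 4 others were miR-495-5p, found in 12 libraries, and miR-1197-5p, miR-758-5p and miR-654-3p, with 3, 2 and 1 counts in all; the last of these is the only listed arm of mmu-mir-654.

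Among all mature miRNAs listed, miR-381-3p ranked 17th with a mean of 7131 CPM. It was followed by miR-300-3p at 2785 CPM, miR-411-5p at 2236 CPM and miR-541-5p at 2213 CPM. Next came miR-379-5p at 1745 CPM, miR-543-3p at 1626 CPM, miR-495-3p at 1048 CPM and, from the hairpin mmu-mir-369, miR-369-3p at 713 CPM and miR-369-5p at 650.1 CPM. The other arms of these 8 hairpins were lower: miR-411-3p averaged 487 CPM and miR-379-3p 162 CPM, and miR-300-5p, miR-541-3p, miR-543-5p, miR-381-5p and miR-495-5p averaged 10.2, 7.04, 4.12, 1.3 and 0.193 CPM. The lowest pair tested was miR-1193-5p, at 0.727 CPM.

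**Figure D1:**
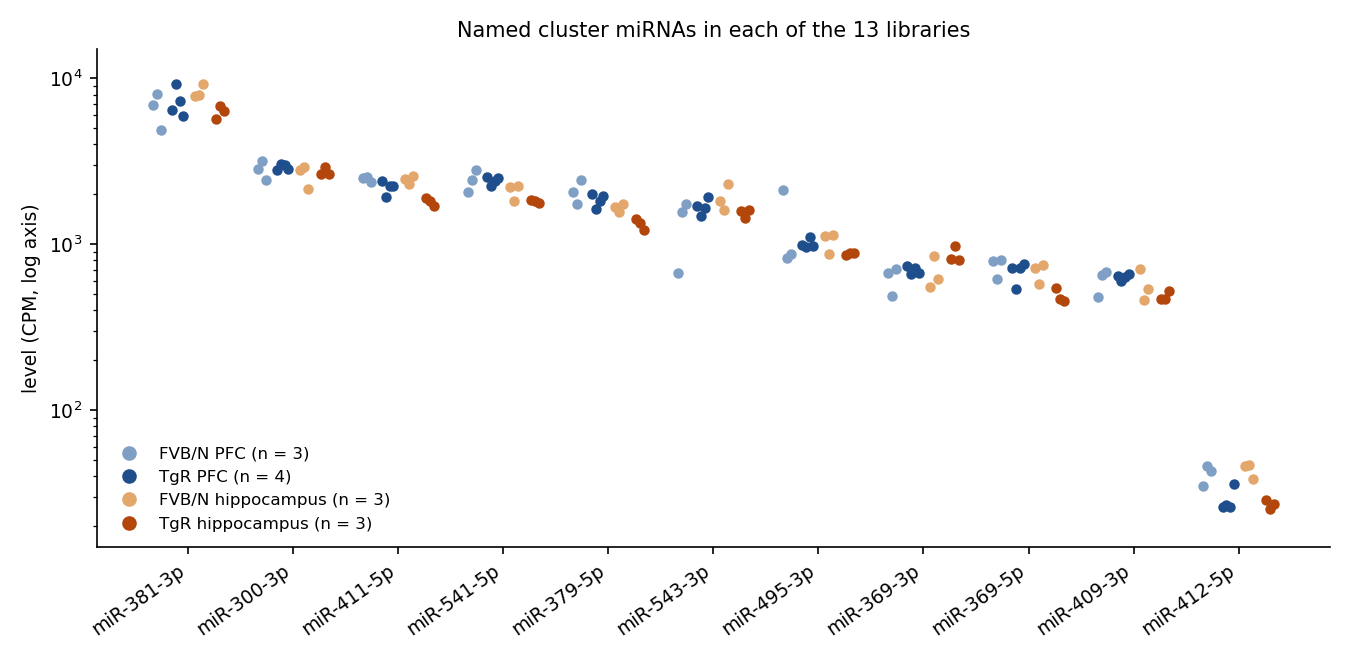
Level in CPM (log axis) of 11 cluster miRNAs in each of the 13 libraries; each point is 1 library, coloured by genotype and region. The 3 TgR hippocampal points of miR-411-5p and of miR-412-5p lie below all 3 FVB/N hippocampal points, and FVB/N PFC replicate 1 stands apart in miR-543-3p and miR-495-3p.

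The cluster as a whole took up a similar share of the counts in most libraries. In FVB/N hippocampus it held 2.51%, 2.63% and 2.80% of all counts (mean 2.65%, SD 0.143, n = 3), and in TgR hippocampus 2.18%, 2.46% and 2.39% (mean 2.34%, SD 0.147, n = 3). The 3 TgR hippocampal libraries were all below the 3 FVB/N ones, by a margin smaller than either group's own range. FVB/N PFC held 2.86%, 2.77% and 2.42% (mean 2.68%, SD 0.236, n = 3), and TgR PFC 2.62%, 2.99%, 2.72% and 2.49% (mean 2.71%, SD 0.209, n = 4). The PFC groups overlapped, and their means differed by less than 1 SD of either.

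These totals count a mature miRNA once for each hairpin at which it is listed. With each mature miRNA counted once, the cluster held 4.09%, 4.3% and 4.44% in FVB/N hippocampus and 3.61%, 4.09% and 3.88% in TgR hippocampus, where the 4.09% of FVB/N replicate 1 is 4.094% and that of TgR replicate 2 is 4.088%. The TgR libraries were thus still all below the FVB/N ones, by a much smaller margin. The means were 4.28% and 3.86% in FVB/N and TgR hippocampus and 4.38% and 4.42% in FVB/N and TgR PFC.

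**Figure D2:**
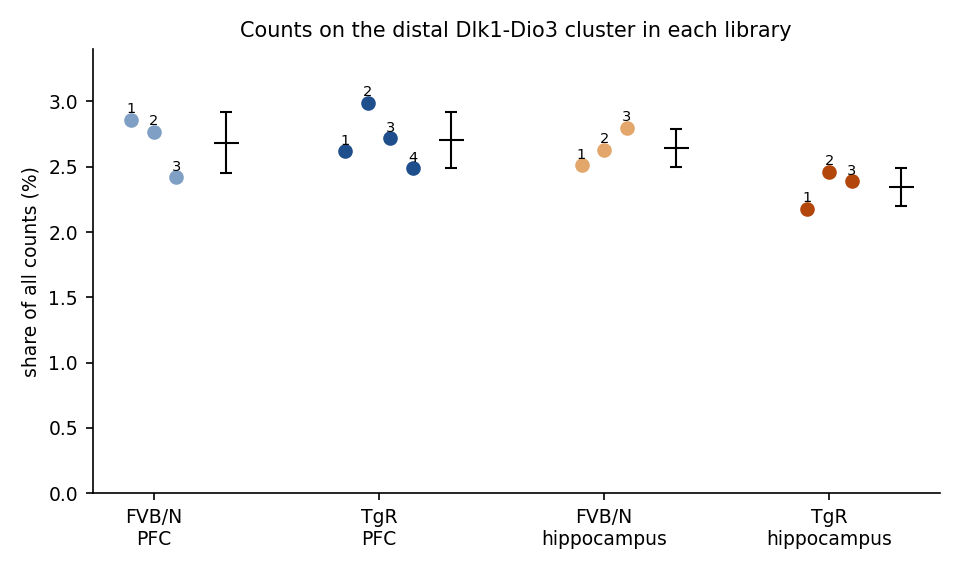
Percent of all counts of a library that fell on the cluster; each point is 1 library and the lines mark the group's mean and SD. The TgR hippocampal libraries lie at 2.18% to 2.46%, below the 2.51% to 2.80% of FVB/N hippocampus, a gap that narrows to 4.088% and 4.094% in the nearest libraries when each mature miRNA is counted once.

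Some libraries stood apart from others of their group before any comparison. In FVB/N PFC, miR-543-3p measured 674, 1556 and 1756 CPM in replicates 1 to 3, and miR-495-3p 2135, 829.7 and 873 CPM, so replicate 1 was low in one and high in the other. TgR PFC replicate 2 had 195 CPM of miR-376a-3p, against 34.3, 78 and 17.5 CPM in the other replicates. That miRNA had the widest range among the 67 cluster pairs listed in all 13 libraries, 17.4-fold between its highest and lowest library. The narrowest range, 1.33-fold, was that of miR-485-3p, which like miR-376a-3p was chosen after its values had been seen.

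The neuronal marker miRNAs (of the mir-124, mir-9, mir-128, mir-138 and mir-137 hairpins) were abundant in every library, summing to 172136 to 255841 CPM with miR-128-3p the most abundant. Markers of choroid plexus and ependyma differed within TgR hippocampus. Their 13 miRNAs, all listed in all 13 libraries, summed to 6408, 1733 and 5291 CPM in TgR hippocampus, to 1417, 1063 and 1014 CPM in FVB/N hippocampus, and to 639.6 to 941 CPM in PFC. By this sum, TgR hippocampal replicates 1 and 3 were the highest, and replicate 2 was also above every FVB/N hippocampal library. The most abundant was miR-204-5p, at 3328, 1022 and 2873 CPM in TgR hippocampus and 1062, 702 and 734 CPM in FVB/N hippocampus. Not every member followed the sum: the scarce miR-449a-5p had 0.913, 1.24 and 2.28 CPM in TgR and 1.57, 2.67 and 2.31 CPM in FVB/N hippocampus. The 7 red blood cell miRNAs, led by miR-451a, summed to 631, 783 and 878 CPM in TgR hippocampus and to 1383, 1407 and 1432 CPM in FVB/N hippocampus. Other lists overlapped between those groups: oligodendrocyte miRNAs, led by miR-219a-2-3p, summed to 2044, 1903 and 3058 CPM against 1812, 2088 and 1379 CPM, vessel miRNAs, led by miR-126a-3p, to 13062, 11113 and 12655 CPM against 12955, 12404 and 17659 CPM, and neuronal miRNAs to 195453, 196555 and 172136 CPM against 201282, 176902 and 192254 CPM. White blood cell miRNAs, led by miR-150-5p, summed to 452, 469 and 440.1 CPM in TgR hippocampus, all above the 411, 426 and 380.5 CPM of FVB/N hippocampus. Of that list, miR-150-5p did not overlap, at 253, 287 and 261 CPM against 213, 226 and 215 CPM. The next most abundant, miR-142a-5p, overlapped, at 124, 113 and 115 CPM against 131, 130.4 and 98.8 CPM, as did miR-142a-3p. The part of these lists in the hippocampal results was not tested, other than by leaving libraries out.

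The comparison of TgR with FVB/N hippocampus asks whether constitutive excess of AChE-R goes with a different output of the cluster. A single cluster miRNA, miR-412-5p, passed the test. Of those that did not, the abundant miR-381-3p, miR-411-5p, miR-379-5p and miR-369-5p had all TgR values below all FVB/N values. Over the cluster, groups did not overlap for 10 lower pairs (15.6%), beside 11.3% of all pairs. In the higher direction they did not overlap for 6 pairs (9.38%), beside 11.8%. As tissue was sequenced in bulk, fewer cells of a type and less RNA per cell cannot be told apart.

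For miR-412-5p, TgR hippocampus had 28.6, 25.2 and 27.2 CPM and FVB/N hippocampus 46.1, 46.4 and 38.3 CPM. All 3 TgR libraries were below all 3 FVB/N libraries, and the TgR values lay close together. With edgeR's quasi-likelihood test and Benjamini-Hochberg adjustment over the 726 pairs tested, its log2 fold change was -0.73 (SE 0.15) with an adjusted p of 0.045, past the threshold of 0.05. Across 15 alternatives the adjusted p ran from 0.0011 to 0.27, and in the same edgeR test it was 0.07, 0.051 and 0.098 without FVB/N replicate 1, 2 or 3 and 0.082, 0.1 and 0.11 without TgR replicate 1, 2 or 3. The call thus needs all 6 libraries, while the fold change stayed between -0.85 and -0.66 in every alternative. This is a minor member of the array, at 0.133% of the cluster's counts.

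The abundant miR-411-5p measured 1899, 1818 and 1691 CPM in TgR hippocampus and 2482, 2323 and 2575 CPM in FVB/N hippocampus. Its groups did not overlap, and each group's values were within a narrow range. By edgeR with Benjamini-Hochberg adjustment its log2 fold change was -0.50 (SE 0.11) with an adjusted p of 0.056, just short of the threshold; without FVB/N replicate 2 it was -0.60 with an adjusted p of 0.042, and across 15 alternatives the adjusted p ran from 0.031 to 0.38.

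The most abundant member, miR-381-3p, stood at 5719, 6866 and 6391 CPM in TgR hippocampus and at 7788, 7998 and 9250.2 CPM in FVB/N hippocampus, again with no overlap. Its log2 fold change of -0.45 (SE 0.13) had an adjusted p of 0.097 with edgeR and Benjamini-Hochberg adjustment. The near-identical miR-300-3p measured 2662, 2912 and 2659.6 CPM in TgR and 2805, 2904 and 2142 CPM in FVB/N, with overlapping groups and a log2 fold change of 0.03 (SE 0.13). The low FVB/N value of miR-300-3p and the high FVB/N value of miR-381-3p both came from replicate 3, and without that library the log2 fold change of miR-300-3p was -0.11. It also took the other sign without TgR replicate 2, at -0.01, and with scaling factors computed without the Dlk1-Dio3 miRNAs, at -0.05.

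Levels of miR-379-5p, from the first hairpin of the array, were 1428, 1352 and 1213 CPM in TgR hippocampus and 1673, 1572 and 1744 CPM in FVB/N hippocampus. The groups did not overlap, and the log2 fold change was -0.37 (SE 0.12, adjusted p 0.16 by edgeR with Benjamini-Hochberg adjustment). For miR-369-5p, TgR had 548, 465 and 454 CPM and FVB/N 720.1, 575 and 746 CPM, with no overlap and a log2 fold change of -0.53 (SE 0.16, adjusted p 0.11 by the same edgeR test with Benjamini-Hochberg adjustment). Without FVB/N replicate 2, the lowest of that group, miR-369-5p passed the threshold, and together with miR-411-5p it made up the 2 calls of that setting, beside 3.81% of all pairs; miR-412-5p was not called there. The opposite arm, miR-369-3p, measured 816, 975 and 798 CPM in TgR and 553, 844 and 617 CPM in FVB/N, overlapping through FVB/N replicate 2, with a log2 fold change of 0.32 (SE 0.17).

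For the other abundant miRNAs the hippocampal groups overlapped. Log2 fold changes were -0.36 (SE 0.17) for miR-543-3p, -0.30 (SE 0.14) for miR-495-3p and -0.26 (SE 0.13) for miR-541-5p. None of these passed the threshold in edgeR or in any of its 15 alternatives. Less abundant members, chosen after their values were seen, separated in both directions without passing in the main fit. Groups did not overlap for miR-382-5p, with a log2 fold change of -0.21 (SE 0.14). The same held for miR-382-3p at 0.42 (SE 0.18) and miR-410-3p at 0.35 (SE 0.16).

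Over the whole cluster, 64 pairs were tested in hippocampus; the 7 left out had at most 13 counts in any library. The 1 pair past the adjusted threshold is 1.56% of those tested, beside 3.44% of all 726 pairs in either direction and 1.52% in the lower one, so the cluster's share of calls is near that of the series. An unadjusted p under 0.05 was reached by 15 cluster pairs, 9 lower (14.1%) and 6 higher (9.38%), beside 17.5% of all pairs, 8.13% lower and 9.37% higher. Groups did not overlap for 10 lower pairs, beside 11.3% of all pairs in that direction, and for 6 higher pairs, beside 11.8%. DESeq2 called 7 cluster pairs (10.9%), beside 7.44% of all pairs. Its calls were 5 lower, beside 3.44% of all pairs, and 2 higher, beside 3.99%: miR-411-5p and miR-412-5p, miR-369-5p, and, chosen after their values were seen, miR-329-5p and miR-666-5p as lower and miR-154-3p and miR-377-3p as higher.

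The median log2 fold change of the 64 cluster pairs in hippocampus was -0.12, beside -0.003 for all pairs, and 40 of the 64 were below 0. The cluster's median was below that of all pairs under every scaling tried. Elsewhere in the domain, the 10 pairs of the hairpins antisense to Rtl1 had a median of -0.15, with 0 past the threshold by edgeR, 2 at an unadjusted p under 0.05 and 1 called by DESeq2. The 16 tested pairs near Meg3 and in Rian had a median of -0.19, with 1 lower past the threshold by edgeR. Of these pairs, 3 were lower at an unadjusted p under 0.05 and 2 were called lower by DESeq2. With TgR replicates 1 and 3 left out together, an alternative chosen after seeing the data, the cluster's median was -0.10 beside -0.05 for all pairs, and no cluster pair passed; 1 TgR library remained, which was taken to vary like the others.

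In the opposite direction, 3 miRNAs that did not pass in the main fit, chosen after their values were seen, show the range. For miR-154-3p, TgR hippocampus had 32.8, 56.4 and 28.9 CPM and FVB/N hippocampus 17.4, 24.2 and 20.1 CPM. For miR-377-3p the values were 29.8, 45.6 and 25.1 CPM in TgR and 20.7, 20.6 and 17.8 CPM in FVB/N. TgR replicate 2 was the highest for both, and neither pair of groups overlapped. Their log2 fold changes of 0.89 (SE 0.26) and 0.72 (SE 0.23) had adjusted p values of 0.11 and 0.14 by edgeR with Benjamini-Hochberg adjustment. For miR-376a-3p, TgR measured 41.4, 73.7 and 30.9 CPM and FVB/N 12.6, 12.5 and 34 CPM, overlapping through FVB/N replicate 3, with a log2 fold change of 1.24 (SE 0.46) and an adjusted p of 0.18 by edgeR with Benjamini-Hochberg adjustment. With no filter all 3 passed, beside 2.60% of all pairs called higher in that setting, while 1 cluster pair was called lower, beside 1.83%.

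**Figure D3:**
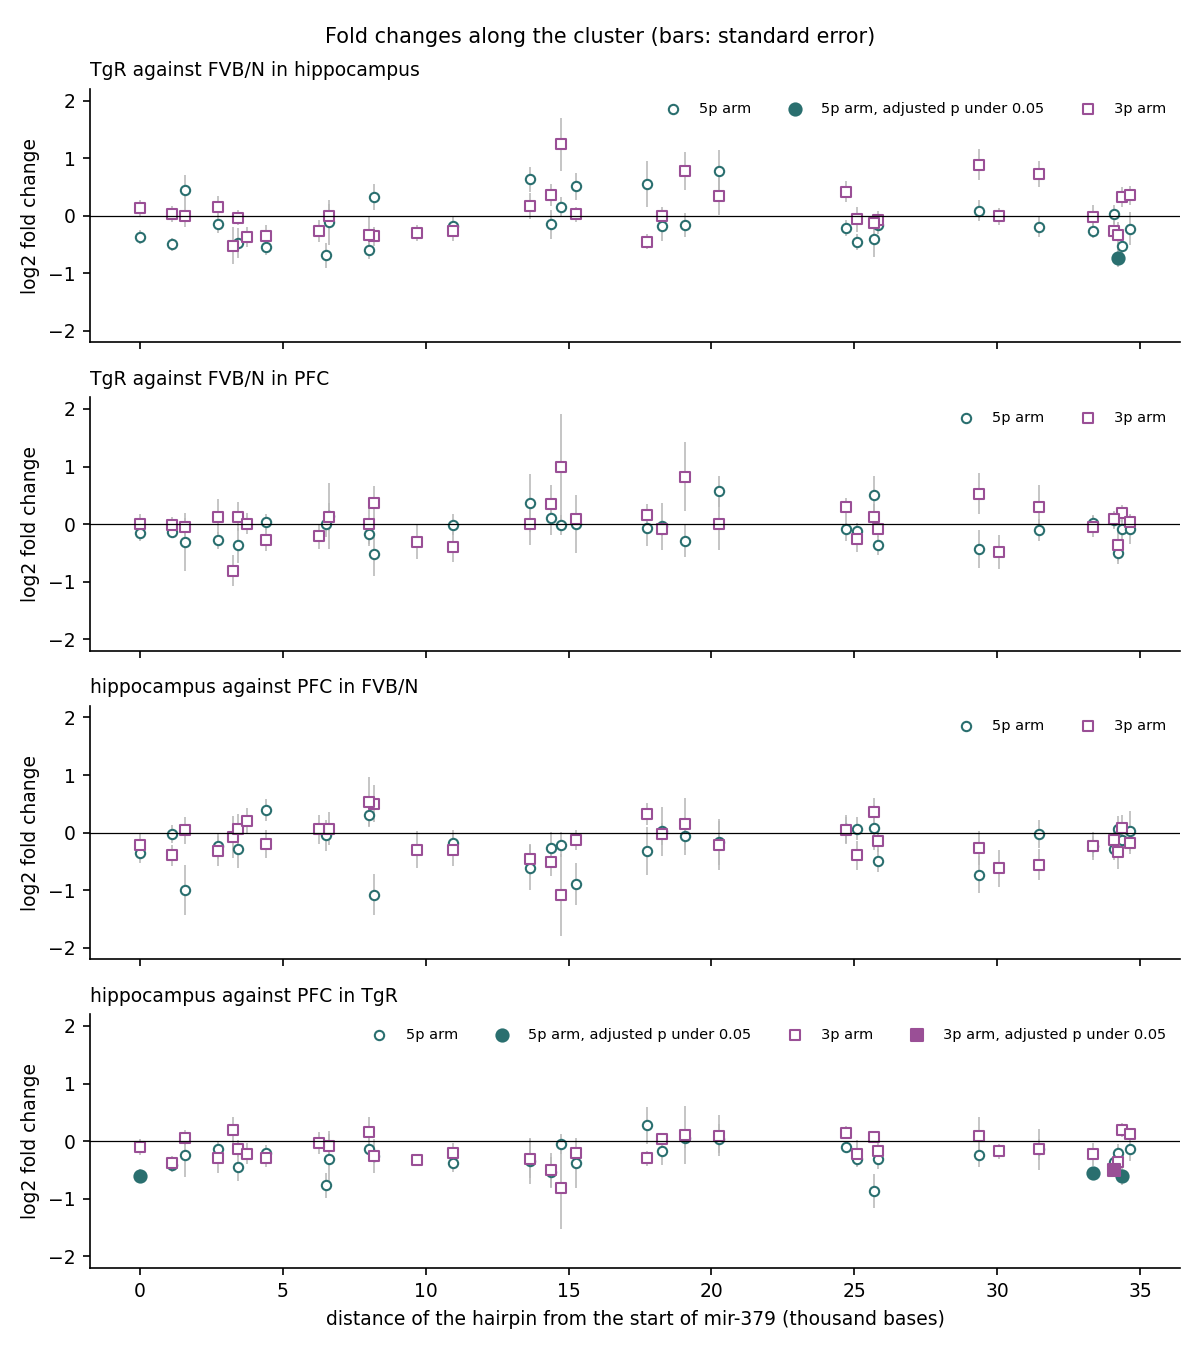
Log2 fold change of each tested cluster miRNA against the distance of its hairpin from the start of mir-379 in kilobases, in 4 comparisons; circles are 5p arms, squares 3p arms, bars the SE, and filled symbols passed an adjusted p of 0.05. Filled symbols are 1 in TgR against FVB/N hippocampus and 4 in hippocampus against PFC of TgR mice, all below 0.

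The same comparison was made in PFC. No cluster pair passed the threshold there, and miR-412-5p, miR-381-3p, miR-411-5p, miR-379-5p and miR-369-5p had overlapping groups. The estimates ran from -0.81 to 0.98 on the log2 scale, beside -0.73 to 1.24 in hippocampus.

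In PFC, miR-412-5p measured 26.1, 26.7, 26 and 35.8 CPM in TgR and 34.6, 45.8 and 42.9 CPM in FVB/N. TgR replicate 4 lay above FVB/N replicate 1, so the groups overlapped, while the other 3 TgR libraries were below all FVB/N ones. On the log2 scale the fold change was -0.49 (SE 0.19, unadjusted p 0.029 and adjusted p 1 by edgeR with Benjamini-Hochberg adjustment).

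For miR-411-5p, TgR PFC had 2421, 1937, 2259 and 2249 CPM and FVB/N PFC 2492, 2559 and 2360.3 CPM. The groups overlapped by 1 TgR library, and the log2 fold change was -0.13 (SE 0.11). For miR-381-3p, TgR PFC had 6462, 9197, 7316 and 5942 CPM and FVB/N PFC 6888, 8004 and 4888 CPM. These overlapped widely, with TgR replicate 2 the highest and FVB/N replicate 3 the lowest, and the log2 fold change of 0.16 (SE 0.19) was -0.01 without FVB/N replicate 3.

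FVB/N PFC replicate 1 decided the sign of a further 2 values. For miR-495-3p the log2 fold change was -0.31 (SE 0.30), and 0.25 without that library, while that of miR-541-5p was 0.02 (SE 0.14), and -0.10 without it; miR-541-5p also changed sign without TgR replicate 1, at -0.01. For miR-379-5p the log2 fold change of -0.15 (SE 0.15) was 0.0008 without FVB/N replicate 3.

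With edgeR and Benjamini-Hochberg adjustment, 0 of 64 cluster pairs passed in PFC, beside 0.137% of the 730 pairs tested, and DESeq2 also called 0, beside 0.137%. At an unadjusted p under 0.05 there were 2 cluster pairs, both lower, beside 2.60% of all pairs and 1.78% in that direction: miR-412-5p and miR-1197-3p, the latter chosen after its values were seen, at 0.876, 1.08, 1.02 and 1.39 CPM in TgR and 1.85, 2.44 and 1.63 CPM in FVB/N. Groups did not overlap for 3 lower pairs, beside 2.05% of all pairs, and for 0 higher ones, beside 3.01%. The cluster's median log2 fold change was -0.008, beside 0.001 for all pairs, with 35 of 64 below 0; with all 13 libraries in one fit the cluster's median was 0.008, beside 0.03. The medians of the Rtl1 antisense and the Meg3 and Rian pairs were 0.03 and 0.04, and 0 pairs of either list passed by edgeR or by DESeq2, with 0 at an unadjusted p under 0.05.

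Whether the genotype effect differed between regions was tested by itself in a fit of all 13 libraries. No cluster pair showed a difference past the threshold, so the calls in hippocampus are not shown to be particular to that region. Of 64 cluster pairs 0 passed with edgeR and Benjamini-Hochberg adjustment, beside 0.533% of 751 pairs, and DESeq2 called 0, beside 3.46%. An unadjusted p under 0.05 was reached by 3, all with a difference below 0, beside 8.12% of all pairs and 5.19% below 0. For miR-412-5p the difference, hippocampus minus PFC, was -0.27 (SE 0.26) on the log2 scale, with an adjusted p of 0.92 by edgeR with Benjamini-Hochberg adjustment. The difference was -0.63 (SE 0.24) for miR-381-3p, with an adjusted p of 0.34, and -0.40 (SE 0.18) for miR-411-5p, with an adjusted p of 0.56, in the same edgeR test with Benjamini-Hochberg adjustment. The cluster's median difference was -0.03, beside 0.008 for all pairs, and its sign was not stable. With library size only it was 0.11, beside 0.15, and with DESeq2 0.002, beside 0.04. With no filter it was 0.091, beside 0.085, and with a single hairpin per mature miRNA 0.026, beside 0.027. Leaving out single libraries also turned it. The cluster's median was 0.03 and 0.02, beside -0.001 and 0.038, without FVB/N PFC replicates 1 and 2. It was 0.007 and 0.008, beside 0.067 and 0.011, without FVB/N hippocampal replicates 2 and 3. Without TgR hippocampal replicates 1 and 3 it was 0.06 and 0.07, above the 0.05 of all pairs in each case. With both left out together, chosen after seeing the data and leaving 1 TgR hippocampal library, it was 0.098, beside -0.03. In the main fit, the Rtl1 antisense and the Meg3 and Rian pairs had medians of -0.23 and -0.29.

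The regions were compared within each genotype to see where the cluster is expressed. The comparison in FVB/N mice shares no library with that in TgR mice, but each shares libraries with the genotype comparisons: the FVB/N hippocampal libraries serve both as controls of TgR hippocampus and as the hippocampal side in FVB/N, and the TgR hippocampal libraries serve in both as well. Values are therefore set side by side. In both genotypes most cluster miRNAs had estimates below 0, that is, lower in hippocampus than in PFC, and the calls were in TgR mice.

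In TgR mice, miR-541-5p measured 1839.7, 1814 and 1779.7 CPM in hippocampus and 2546, 2257, 2417 and 2525 CPM in PFC. The hippocampal values were almost the same in the 3 libraries, and all were below the lowest PFC value. Its log2 fold change was -0.55 (SE 0.09), with an adjusted p of 0.0073 by edgeR with Benjamini-Hochberg adjustment over 738 pairs. This call held without any 1 of the 7 libraries and in 15 of 16 alternatives, the exception being the omission of TgR hippocampal replicates 1 and 3 together (adjusted p 0.16, with a range over the alternatives from 9.4e-08 to 0.16). In FVB/N mice the values were 2224, 1817 and 2247 CPM in hippocampus and 2057, 2443 and 2805 CPM in PFC, which overlapped, and the log2 fold change was -0.24 (SE 0.19).

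For miR-409-3p, TgR hippocampus had 466, 465 and 522 CPM and TgR PFC 641, 598, 631 and 663 CPM. No hippocampal library reached the lowest PFC library. Its log2 fold change was -0.50 (SE 0.10), with an adjusted p of 0.013 by edgeR with Benjamini-Hochberg adjustment, and 0.051, 0.07 and 0.068 in the same edgeR test without PFC replicate 3 and without hippocampal replicates 1 and 2; over 16 alternatives it ran from 8.7e-06 to 0.17. In FVB/N mice, hippocampus had 704, 459 and 535 CPM and PFC 482, 655 and 682 CPM, with wide overlap and a log2 fold change of -0.12 (SE 0.22).

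The values of miR-379-5p in TgR mice were 1428, 1352 and 1213 CPM in hippocampus and 2019, 1629, 1823 and 1966 CPM in PFC. The groups did not overlap, and TgR PFC replicate 2 was the lowest of its group. This gave a log2 fold change of -0.60 (SE 0.12), with an adjusted p of 0.014 by edgeR with Benjamini-Hochberg adjustment, 0.071 without hippocampal replicate 3, and from 5.5e-05 to 0.2 over 16 alternatives. In FVB/N mice hippocampus had 1673, 1572 and 1744 CPM and PFC 2079.6, 1751 and 2439.7 CPM, also without overlap, though PFC replicate 2 lay just above hippocampal replicate 3, and the log2 fold change of -0.35 (SE 0.18) had an adjusted p of 0.36 by edgeR with Benjamini-Hochberg adjustment.

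For miR-369-5p, TgR hippocampus had 548, 465 and 454 CPM and TgR PFC 719, 538, 715 and 759.9 CPM. TgR PFC replicate 2 fell below hippocampal replicate 1, so the groups overlapped. The log2 fold change was -0.60 (SE 0.15), with an adjusted p of 0.038 by edgeR with Benjamini-Hochberg adjustment. Without PFC replicate 1, 3 or 4 the same edgeR adjusted p was 0.1, 0.11 and 0.077, and without hippocampal replicate 1, 2 or 3 it was 0.056, 0.11 and 0.14, so the call held only without PFC replicate 2; over 16 alternatives it ran from 0.0016 to 0.26. In FVB/N mice the log2 fold change was -0.13 (SE 0.19).

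A call in TgR mice alone does not show that the regions differed more in TgR than in FVB/N mice. That difference is the same contrast as the difference between regions in the genotype effect, tested with all 13 libraries. It was -0.32 (SE 0.22) for miR-541-5p, -0.39 (SE 0.26) for miR-409-3p, -0.26 (SE 0.22) for miR-379-5p and -0.48 (SE 0.26) for miR-369-5p on the log2 scale, with adjusted p values of 0.82, 0.8, 0.91 and 0.67 by edgeR with Benjamini-Hochberg adjustment. None passed the threshold.

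The 4 calls in TgR mice were all lower in hippocampus. They were 4 of 64 cluster pairs, or 6.25%, beside 11.2% of the 738 pairs tested in either direction and 5.69% in the lower one, so in that direction the cluster's share is near that of the series. An unadjusted p under 0.05 was reached by 13 cluster pairs (20.3%), all lower, beside 24.1% of all pairs in either direction and 12.2% lower. Groups did not overlap for 9 lower pairs, beside 9.08% of all pairs, and for 3 higher pairs, beside 19.4%. The count of calls rested on single libraries: it was 3, 11, 2 and 3 without PFC replicates 1, 2, 3 and 4, and 2 without each of hippocampal replicates 1, 2 and 3. The share of all pairs called, in either direction, moved with it, to 6.98%, 17.5%, 6.12% and 10% without the PFC replicates and 6.16%, 8.08% and 7.67% without the hippocampal ones. All these cluster calls were lower. The share of all pairs called lower was 3.42%, 10.4%, 3.13% and 4.39% without the PFC replicates. Without the hippocampal ones it was 3.61%, 4.24% and 3.77%. The 11 calls without PFC replicate 2 were 17.2% of the cluster pairs. DESeq2 called 10 (15.6%), all lower, the 4 among them, beside 17.3% of all pairs in either direction and 9.89% lower. The median log2 fold change was -0.21, beside 0.03 for all pairs, with 50 of 64 below 0. The 10 Rtl1 antisense pairs had a median of -0.08 and 2 lower past the threshold, and the 16 Meg3 and Rian pairs a median of -0.28 and 2 lower past it. Marker sums also separated these groups without overlap. Neuronal miRNAs summed to 172136 to 196555 CPM in TgR hippocampus and to 208082 to 250892 CPM in TgR PFC. Within that list, miR-128-3p of mir-128-1 was lower in hippocampus, at 95587 to 107958 CPM against 127188 to 169677 CPM. Not all members went that way: miR-9-3p was higher in hippocampus, at 9709.6 to 11937 CPM against 8886 to 9623 CPM, and miR-124-3p overlapped. In the same order, oligodendrocyte miRNAs summed to 1903 to 3058 and 602 to 736 CPM, and red blood cell miRNAs to 631 to 878 and 1329.6 to 2488 CPM. Choroid plexus and ependyma miRNAs summed to 1733 to 6408 and 684 to 941 CPM. Vessel miRNAs summed to 11113 to 13062 and 14418 to 15949 CPM, and white blood cell miRNAs to 440.1 to 469 and 485 to 643 CPM. The part of these differences in the calls was not tested.

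In FVB/N mice 0 of 63 cluster pairs passed with edgeR and Benjamini-Hochberg adjustment, beside 3.34% of the 718 pairs tested, and DESeq2 called 0, beside 5.01%. Without FVB/N PFC replicate 3 there were 4 (6.35%), all lower, beside 7.05% of all pairs in either direction and 2.35% in the lower one. An unadjusted p under 0.05 was reached by 5, again all lower, beside 15.2% of all pairs and 6.55% in that direction; of these miR-543-5p had the smallest p: it measured 3.69, 2.61 and 2.24 CPM in hippocampus and 9.29, 4.19 and 4.27 CPM in PFC, where replicate 1 was high, and its log2 fold change of -1.08 (SE 0.36) had an adjusted p of 0.15 by edgeR with Benjamini-Hochberg adjustment. Groups did not overlap for 5 lower pairs, beside 6.82%, and for 3 higher pairs, beside 14.8%. The median log2 fold change was -0.17, beside -0.003 for all pairs, with 43 of 63 below 0. The medians of the 10 Rtl1 antisense and the 16 Meg3 and Rian pairs were 0.11 and 0.05, with 0 past the threshold by edgeR and by DESeq2 and 0 at an unadjusted p under 0.05.

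Several single values in FVB/N mice took their sign from 1 library. For miR-495-3p the value was -0.30 (SE 0.32) on the log2 scale, and 0.26 without PFC replicate 1. That of miR-411-5p was -0.02 (SE 0.15), and 0.01 without PFC replicate 2 and 0.03 without hippocampal replicate 2. For miR-369-3p it was 0.09 (SE 0.22), and -0.06 and -0.10 without the same 2 libraries. For miR-381-3p, hippocampus had 7788, 7998 and 9250.2 CPM beside 6888, 8004 and 4888 CPM in PFC, overlapping, and the log2 fold change was 0.33 (SE 0.19) in FVB/N and -0.30 (SE 0.14) in TgR mice.

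Each hairpin can leave a mature miRNA from its 5p and its 3p arm, and the balance between them was measured within each hairpin, so that a change of both arms alike cancels. Of the 35 hairpins with both arms listed, the 5p arm led in all 13 libraries for 11 and the 3p arm for 19, and the leading arm differed between libraries for 5. The lesser arm was under 1% in every library for 5 hairpins and above 25% in every library for 4. Hairpins of the first kind include mmu-mir-381, whose 5p arm held at most 0.0331% of its counts in any library.

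In hippocampus, the 5p arm's share of mir-369 was 40.2%, 32.3% and 36.2% in TgR and 56.6%, 40.5% and 54.7% in FVB/N. The leading arm was therefore 3p in all 3 TgR libraries and 5p in FVB/N replicates 1 and 3, and FVB/N replicate 2 lay just above the highest TgR library. In PFC the shares were 49.2%, 44.8%, 49.8% and 53.2% in TgR and 54.2%, 55.9% and 52.9% in FVB/N, overlapping through TgR replicate 4.

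For mir-379 the 5p share was 89%, 88.9% and 88.6% in TgR hippocampus and 92.1%, 90.9% and 92.5% in FVB/N hippocampus. For mir-411 it was 81.1%, 80.5% and 79.2% in TgR and 83.6%, 86.2% and 86.6% in FVB/N. Neither pair of groups overlapped, and the 3p arms of both hairpins, which share a seed, overlapped in level: miR-379-3p measured 177, 168 and 156 CPM in TgR and 143, 158 and 141 CPM in FVB/N, and miR-411-3p 443, 442 and 443 CPM in TgR and 486, 373 and 399 CPM in FVB/N. For mir-379 and mir-411 the lower share thus went with the lower level of the 5p arms. The 3p arm moved more in mir-382 and mir-154, chosen after their values were seen, whose 5p share was also lower in TgR hippocampus. Hippocampal log2 fold changes were 0.42 for miR-382-3p and -0.21 for miR-382-5p, and 0.89 for miR-154-3p and 0.09 for miR-154-5p.

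Of 13 cluster hairpins with both arms at 10 CPM or more, the 5p share was lower in every TgR than every FVB/N hippocampal library for 5, beside 17.4% of all 109 such hairpins. They were mir-411, mir-379 and mir-369 and, chosen after their values were seen, mir-382 and mir-154. In PFC this held for 1, mir-154, beside 1.83%. Between the regions of TgR mice it held for 3, lower in hippocampus, beside 19.3%: mir-379, mir-369 and mir-382. Between the regions of FVB/N mice it held for 1, mir-485, chosen after its values were seen, beside 8.26%. The 5p share of mir-411 went the other way there, at 83.6%, 86.2% and 86.6% in hippocampus and 83%, 83% and 79.9% in PFC, without overlap. The mean 5p share was lower in TgR for 10 of the 13 in hippocampus, beside 58 of the 109, and for 12 of the 13 in PFC, beside 67 of the 109. The hippocampal median log2 fold change was -0.18 for the 30 tested 5p miRNAs of the cluster and -0.007 for the 34 tested 3p miRNAs, beside -0.009 and 0.04 for all 5p and 3p miRNAs.

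**Figure D4:**
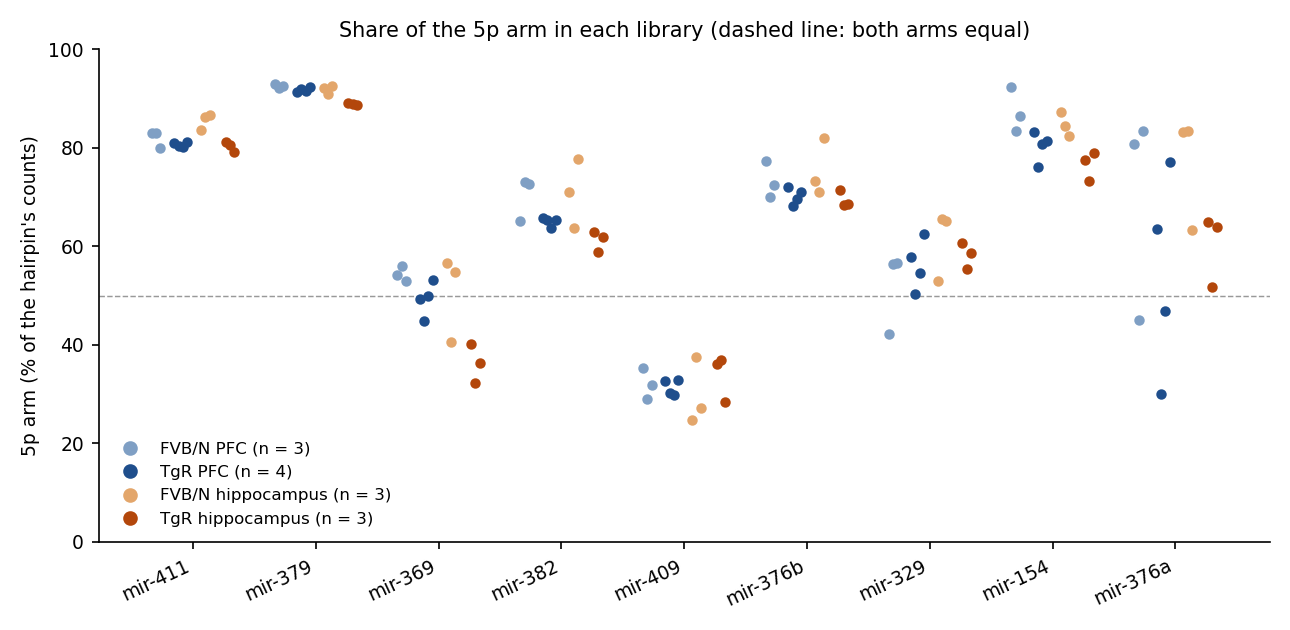
Share of the 5p arm among the counts of 9 cluster hairpins in each library; each point is 1 library and the dashed line marks equal arms. In hippocampus the TgR points of mir-411, mir-379, mir-369, mir-382 and mir-154 lie below all FVB/N points, for mir-369 at 32.3% to 40.2% against 40.5% to 56.6%.

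The genotype estimates were set against the base content of the mature miRNA, for the 60 cluster miRNAs that were tested and had a RefSeq sequence. In hippocampus, the Spearman correlation between the percent of A and U bases and the log2 fold change was 0.54 over those 60 miRNAs, beside 0.26 over the 464 tested miRNAs outside the cluster. The points share their libraries and are not independent. Of the 14 cluster miRNAs with at least 60% A and U, 12 were above 0 with a median of 0.36, and of the 17 under 50%, 1 was above 0 with a median of -0.27. Over all tested miRNAs the medians were 0.21 for the 92 with at least 60% and -0.10 for the 207 under 50%. With each hippocampal library left out in turn the correlation stayed between 0.44, without TgR replicate 2, and 0.60, without TgR replicate 3.

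The miRNAs named above differ in this respect. In miR-369-3p, 16 of 21 bases are A or U, with a hippocampal log2 fold change of 0.32. Its opposite arm miR-369-5p has 12 of 22, with -0.53, and miR-154-3p has 14 of 22, with 0.89. An exception is miR-495-3p, also with 14 of 22 A or U bases, at -0.30.

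In PFC the correlation was 0.33 over 60 cluster miRNAs, beside 0.20 over 466 others, and it depended on single libraries. It was 0.55, 0.33 and 0.08 without FVB/N PFC replicates 1, 2 and 3, and 0.39, 0.02, 0.29 and 0.44 without TgR PFC replicates 1, 2, 3 and 4. Of the 14 miRNAs with at least 60% A and U, 13 were above 0 with a median of 0.16, and of the 17 under 50%, 6 were above 0 with a median of -0.04. Between regions the correlation was -0.28 over 59 cluster miRNAs in FVB/N mice and 0.20 over 60 in TgR mice.

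Libraries of the same group also differed from each other along base content. Within TgR hippocampus, the deviation of a library from its group's mean correlated with the percent of A and U at 0.59 in replicate 2 and -0.61 in replicate 3, over the same number of cluster miRNAs, and at -0.12 in replicate 1. Within TgR PFC it was -0.35, 0.40, 0.52 and -0.43 in replicates 1 to 4. In FVB/N hippocampus it was 0.06, 0.25 and -0.29 in replicates 1 to 3, and in FVB/N PFC 0.18, 0.23 and -0.34. The size in TgR hippocampal replicates 2 and 3 was thus larger than the 0.54 of the genotype correlation in hippocampus. TgR PFC replicate 3 was just below that correlation, and the other libraries were lower. The part of this variation in the genotype differences was not tested.

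**Figure D5:**
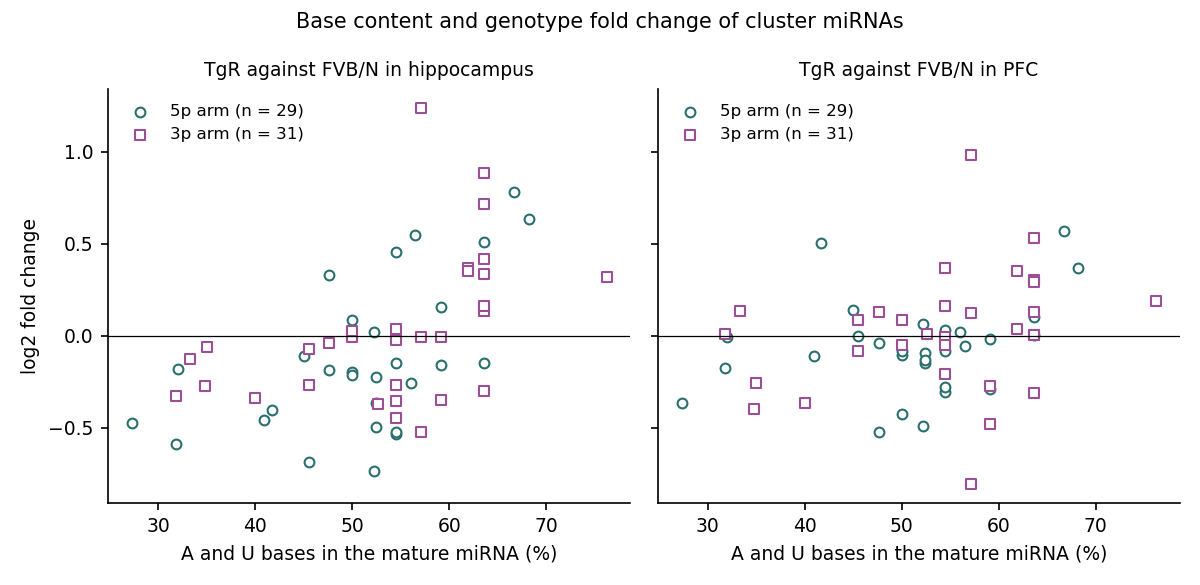
Log2 fold change of TgR against FVB/N, in hippocampus and in PFC, against the percent of A and U bases in the mature miRNA, for the 60 tested cluster miRNAs with a sequence; circles are 5p arms and squares 3p arms. In hippocampus the Spearman correlation is 0.54, and 12 of the 14 miRNAs with at least 60% A and U lie above 0.

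With 3 or 4 libraries a group, the spread between replicates, a biological coefficient of variation of 18.9% in the hippocampal and 26.4% in the PFC comparison, limits what could be called. Counts by miRNA name do not show edited bases, and for the 9 cluster miRNAs within 3 edits of another listed miRNA the assignment of reads rests on few bases.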

How the data were processed

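Small RNA of 13 libraries was sequenced. According to the labels, the authors checked reads with FastQC, aligned them to miRBase and quantified them with miRExpress at default parameters, and used DESeq2 for differential expression; the values used here are the raw counts per hairpin and mature miRNA that the authors deposited for each library. None of their normalized values entered the work. A pair missing from a library was taken as a count of 0. Replicates are numbered as in the sample titles; the deposited files number the FVB/N PFC animals 1, 3 and 4, where the titles have 1, 2 and 3.

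Here each of 4 comparisons was fitted by itself on all pairs with edgeR 4.0.16 in R 4.3.3 (filterByExpr with a minimum count of 10, TMM factors, quasi-likelihood test, Benjamini-Hochberg adjustment, threshold 0.05), and the difference between regions in 1 fit of all 13 libraries. The SE was taken as |log2 fold change|/sqrt(F). CPM were scaled with TMM factors over all 13 libraries, whereas fold changes come from each comparison's own fit. The steps were tested on simulated data. DESeq2 1.42.0, other scaling (DESeq2 size factors in edgeR, library size only, TMM factors without the Dlk1-Dio3 miRNAs), no filter, a single hairpin per mature miRNA, a replicate block, 1 fit of all libraries and each library left out were alternatives. Python 3.11 drew the figures and matched sequences.

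Named with values were both arms of the 8 most abundant hairpins, up to 6 higher and 6 lower cluster pairs past the threshold in each comparison, any past it for the difference between regions, and absent members with the lowest pair tested; others carry the remark that they were chosen after their values were seen. Members, reference lists (hairpins antisense to Rtl1, and those near Meg3 and in Rian) and marker lists (neuronal, choroid plexus and ependyma, red and white blood cell, oligodendrocyte, vessel) were chosen with earlier results of these data known. Arm shares were compared where both arms averaged at least 10 CPM. Near-identical mature miRNAs may share reads. RefSeq held a sequence for 67 of the 71 cluster miRNAs.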

Additional observations from a re-analysis of the deposited data

Results flagged for a closer look

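One value stood apart within its group. In TgR PFC, miR-412-5p measured 26.1, 26.7, 26 and 35.8 CPM, and the gap between replicate 4 and the nearest other library made up 0.927 of the group's whole range, above Dixon's critical share for a group of 4. It was 1 of 19 items looked at in this way, which were the named cluster miRNAs and the cluster's summed share, and chance gives such a gap in about 1 in 20 groups. Replicate 4 is the library by which miR-412-5p overlapped FVB/N PFC, at 34.6, 45.8 and 42.9 CPM. Its cause was not tested. No cluster miRNA differed between the regions in its genotype effect past the threshold.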

How the results depend on the processing

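Of 527 values of single miRNAs under an alternative, 467 kept their direction and their side of the threshold, 29 were no longer past it, 18 newly passed it and 13 changed sign. The causes of the changes listed here were not tested. In hippocampus, TgR against FVB/N, the 1 cluster pair past the threshold became 7 with DESeq2 (2 higher and 5 lower, beside 7.44% of all pairs), 4 with TMM factors without the Dlk1-Dio3 miRNAs (4.96%), 4 with no filter (3 higher, miR-154-3p, miR-376a-3p and miR-377-3p, and 1 lower; 4.43%), 2 with a single hairpin per mature miRNA (4.85%), and 0 with library size only (2.48%), with all 13 libraries in one fit (2.93%) and with TgR replicates 1 and 3 left out together (0.133%), which was chosen after seeing the data and leaves 1 TgR library; leaving out each library gave 0 to 2 (0.135% to 3.81%). Hippocampus against PFC in TgR mice went from 4 to 10 with DESeq2 (17.3%), 8 with DESeq2 size factors (13.1%), 10 with TMM factors without the Dlk1-Dio3 miRNAs (14.8%), 0 with the same TgR libraries left out (0.51%), and 2 to 11 with each library left out (6.12% to 17.5%). In FVB/N mice 0 became 3 with no filter (3.98%) and 0 to 4 with each library left out (0.541% to 7.05%). PFC and the difference between regions stayed at 0 in every alternative run.

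Replicate numbers, taken from the titles, would pair samples only if each pair correlated above 0.1. That was not met: the correlations of the 3 pairs were -0.068, 0.126 and -0.034 between genotypes in hippocampus, -0.225, 0.416 and 0.05 in PFC, 0.127, 0.05 and 0.186 between regions in FVB/N mice and 0.114, 0.41 and -0.132 in TgR mice. With the replicate number as a block, the count was 0 in hippocampus (1.24% of all pairs) and 1 between regions in TgR mice (7.32%). The deposited files number the FVB/N PFC animals differently, and a pairing by those numbers was not tested.

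Log2 fold changes that changed sign were, in hippocampus, miR-300-3p (-0.046 with TMM factors without the Dlk1-Dio3 miRNAs, and -0.106 to 0.0529 over the libraries left out); in PFC, miR-541-5p (-0.10 to 0.15), miR-495-3p (-0.54 to 0.25), miR-381-3p (-0.00765 to 0.32) and miR-379-5p (-0.261 to 0.000768); and between regions in FVB/N mice, miR-495-3p (-0.50 to 0.26), miR-411-5p (-0.0866 to 0.0265) and miR-369-3p (-0.10 to 0.25), the ranges being over the libraries left out. The cluster's summed share, counting a single hairpin per mature miRNA, was 4.38% in FVB/N PFC, 4.42% in TgR PFC, 4.28% in FVB/N hippocampus and 3.86% in TgR hippocampus. Scaling by library size only moved the median log2 fold change of all pairs to 0.13 between regions in TgR mice, where the cluster's was -0.10, and to 0.15 for the difference between regions, where the cluster's was 0.11. Depth left out 7 or 8 cluster pairs of at most 13 or 23 counts in any library from each test.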
